A study of Bos taurus with 3 samples.

Results

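The elastic fibre and microfibril genes ELN, FBN1, FBN2, FBLN1, FBLN2, FBLN5, EFEMP2, MFAP2, MFAP4 and MFAP5 were chosen by symbol, and all 10 have a row among the 31903 genes listed for BFF116 cells. BFF116 is a culture of Bos taurus fetal fibroblasts used as nuclear donors for somatic cell nuclear transfer, and the cells were deprived of serum for 48 h before harvest. The study has 1 group with 3 libraries of total RNA, called biological replicates 1 to 3 in the labels, and no fresh, serum-fed or adult cells against which a change could be measured. Nothing in the labels ties the replicates to different animals or culture dishes, and the spread over them may therefore be technical in part. BFF116 is 1 named cell population, so the values describe it and not bovine fibroblasts at large.

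Elastic fibres give skin, vessels, lung and ligaments their recoil. Fibrillin monomers first assemble into microfibrils outside the cell, microfibril-associated glycoproteins and fibulins attach to them, and secreted tropoelastin is laid onto this scaffold and crosslinked by lysyl oxidases into an elastin core. Microfibrils also exist without an elastin core, as in the ciliary zonule of the eye, and they hold latent TGF-beta and bone morphogenetic proteins in the matrix.

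The 3 libraries held 8608350, 4842331 and 7122651 gene reads, which were 29.8 to 33.3% of all counted reads. Levels are given as CPM (gene counts per 1e6 reads), that is, gene reads scaled to the effective library size, and they are not corrected for transcript length. Because no transcript lengths were at hand, a ratio between genes is a ratio of reads that also carries their lengths, and no level was ranked between genes on a per-length scale. Fibroblast markers numbered 9 of 10 at a minimum of 1 CPM per library, led by COL3A1, COL1A1 and VIM. The exception was PDPN, with 33, 6 and 3 reads. Epithelial and cartilage markers had 0 of 7 and 0 of 5 listed members at that level, leukocyte markers 2 of 7 and endothelial markers 3 of 7. Of all listed genes 34.6% reached that level, and the leukocyte and endothelial counts lie near that share. Smooth muscle markers had 4 of 7, led by ACTA2, TAGLN and CNN1, whereas MYH11 had 41, 2 and 7 reads and DES and MYOCD were listed at 0. The planned markers SOX9 (cartilage), CDH5 (endothelial) and LMOD1 (smooth muscle) had no row under these symbols and are left out of the counts. Whether reads could be assigned to the markers listed at 0 was not tested.

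Most of the microfibril and fibulin genes were abundant in these cells while the elastin gene was close to its detection limit. Of the 10 genes, 9 were measured, meaning 1 CPM or more in every library, against 34.6% of all listed genes, and ELN was the exception. FBN1, FBLN5, FBLN2 and EFEMP2 reached 100 CPM or more in every library, 4 of 10 against 4.33% of all listed genes. These shares are background and not a test, because the genes were chosen with earlier results of these data known. Only 18039 of the 31903 listed genes had a read at all. The median over the 10 genes was 83.7 CPM, and the median of all genes with a read was 4.96 CPM. The median of all measured genes was 20.5 CPM, which 8 of the 10 exceeded, while MFAP4 and ELN lay below it. Together the 10 genes took 0.415, 0.427 and 0.441% of gene reads in replicates 1 to 3, a mean of 0.428% ± 0.0128 (SD, n = 3). FBN1 alone supplied 56.0, 51.8 and 50.8% of those reads.

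**Figure D1:**
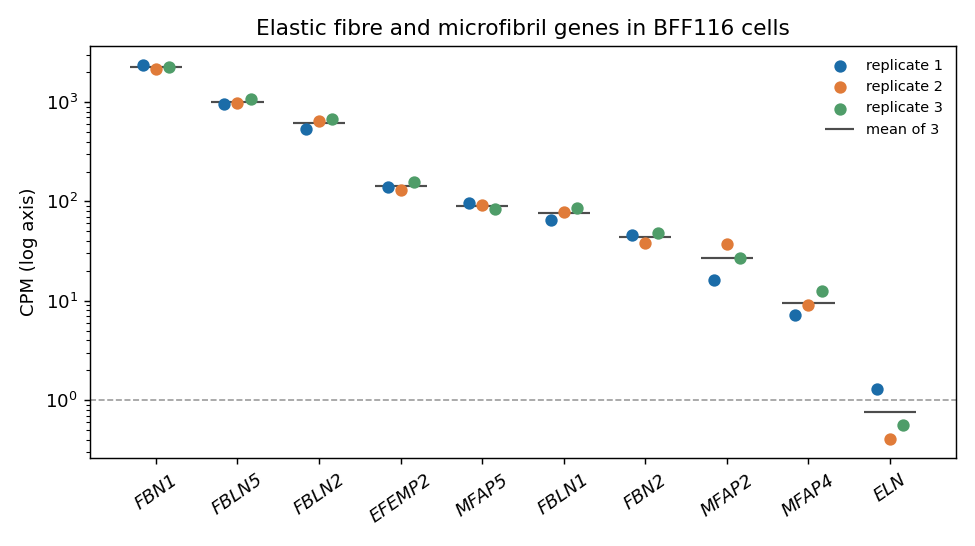
CPM on a log axis of the 10 genes in each of the 3 libraries, ordered by mean; points are libraries, bars are means and the dashed line marks 1 CPM. FBN1 lies between 2162 and 2379 CPM, and ELN falls below the line in replicates 2 and 3.

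ELN encodes tropoelastin, the soluble precursor of the elastin core. It had 11, 2 and 4 reads in replicates 1 to 3, which is 1.31, 0.403 and 0.563 CPM. Exact 95% Poisson intervals, which cover counting error only, ran from 0.652 to 2.34 CPM in replicate 1, from 0.0488 to 1.46 in replicate 2 and from 0.153 to 1.44 in replicate 3. The 3 intervals overlap, but overlap is not a test of a difference, and ELN had too few reads for the main test of replicate spread given further on. The mean was 0.757 ± 0.482 CPM (SD, n = 3) and 0.488 CPM without replicate 1. In bulk RNA, fewer cells carrying a transcript and less of it per cell cannot be told apart, so these reads may come from a few cells or from all.

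In the RefSeq gene order of the ARS-UCD2.0 assembly, used here for names and neighbours only, 4 of the 8 nearest protein-coding genes have a row in the count table. LIMK1, the adjacent kinase gene, had 7, 9 and 19 reads and RFC2, a clamp loader subunit of DNA replication, had 91, 35 and 108. The claudin genes CLDN3 and CLDN4 were listed at 0. Whether the annotation used for counting covers every ELN exon was not tested.

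The fibrillins form the backbone of the microfibril. FBN1, the fibrillin gene mutated in Marfan syndrome, stood at 2379, 2162 and 2245 CPM in replicates 1 to 3. Its mean of 2262 ± 109 CPM (SD, n = 3) was exceeded by 40 of the 31903 listed genes, and its coefficient of variation (CV) of 4.83% was the smallest of the 9 measured genes. FBN2, which in mammals is expressed mainly during development and is mutated in congenital contractural arachnodactyly, stood at 45.6, 38.1 and 48.0 CPM, a mean of 43.9 ± 5.17 CPM (SD, n = 3). The libraries of each fibrillin gene lay close together and those of FBN1 and FBN2 did not overlap.

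FBN1 reads outnumbered FBN2 reads in every library, by 52.2, 56.8 and 46.8 to 1. The log2 ratio of reads was 5.69 ± 0.14 (SD, n = 3). Summed over the libraries, the ratio was 51.1 (exact 95% binomial interval 47.9 to 54.6). The encoded proteins are of similar length, but the lengths of the untranslated regions were not taken into account. For ratios over 3 libraries the two-sided exact sign-flip permutation test cannot give a p below 0.25, which was its value for each of the 8 gene pairs compared, so no pair could pass and pairs are described by direction, mean and SD. The third fibrillin gene, FBN3, was listed at 0 reads.

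Set against ELN, FBN1 reads were 1821, 5365 and 3989 times as many in replicates 1 to 3. The ratio of summed reads was 2748 (exact 95% binomial interval 1716 to 4717), with a log2 ratio of 11.54 ± 0.69 (SD, n = 3). ELN had 2 to 11 reads a library and FBN1 had 10729 to 20026.

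The genes nearest FBN1 in read abundance were EIF4G2, a translation initiation factor gene, COL11A1, which encodes a fibrillar collagen chain, and ANXA5, which encodes a calcium-dependent phospholipid-binding protein. Their mean absolute differences from FBN1 on the log2(CPM + 0.5) scale over the 3 libraries were 0.088, 0.091 and 0.15. These are likenesses of level in 3 replicates of 1 group and say nothing of a shared pattern across conditions.

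MFAP2 and MFAP5 encode the small microfibril-associated glycoproteins that bind fibrillin, and MFAP4 encodes an unrelated fibrinogen-domain protein that binds elastin, fibrillin and collagen. MFAP5 stood at 97.2, 92.3 and 83.4 CPM in replicates 1 to 3, a mean of 91.0 ± 6.96 CPM (SD, n = 3). MFAP2 stood at 16.3, 36.9 and 27.0 CPM, a mean of 26.7 ± 10.3 CPM (SD, n = 3). MFAP2 thus varied 2.27-fold between replicates 1 and 2, while MFAP5 varied 1.16-fold over the libraries. MFAP4 had 7.13, 9.07 and 12.5 CPM, with replicate 3 highest and a mean of 9.57 ± 2.73 CPM (SD, n = 3).

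MFAP2 supplied 14.3% of the reads of MFAP2 and MFAP5 together in replicate 1, 28.5% in replicate 2 and 24.5% in replicate 3. The exact 95% Clopper-Pearson intervals were 12.2 to 16.7%, 25.1 to 32.2% and 21.5 to 27.6%, with replicate 1 below the other libraries and replicates 2 and 3 overlapping. These intervals leave out the variation between replicates, and in the test that includes it, given further on, MFAP2 did not pass. The shares in the 3 libraries can be set side by side without transcript lengths, which are the same in each. MFAP2 reads were fewer than MFAP5 reads throughout, at a log2 ratio of -1.84 ± 0.65 (SD, n = 3). MFAP5 over FBN1 was much steadier, at a log2 ratio of -4.64 ± 0.10, than MFAP2 over FBN1, at -6.48 ± 0.66 (SD, n = 3 each). The read ratio of MFAP5 over MFAP4 was 13.6, 10.2 and 6.66 in replicates 1 to 3, a log2 ratio of 3.27 ± 0.52 (SD, n = 3).

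**Figure D2:**
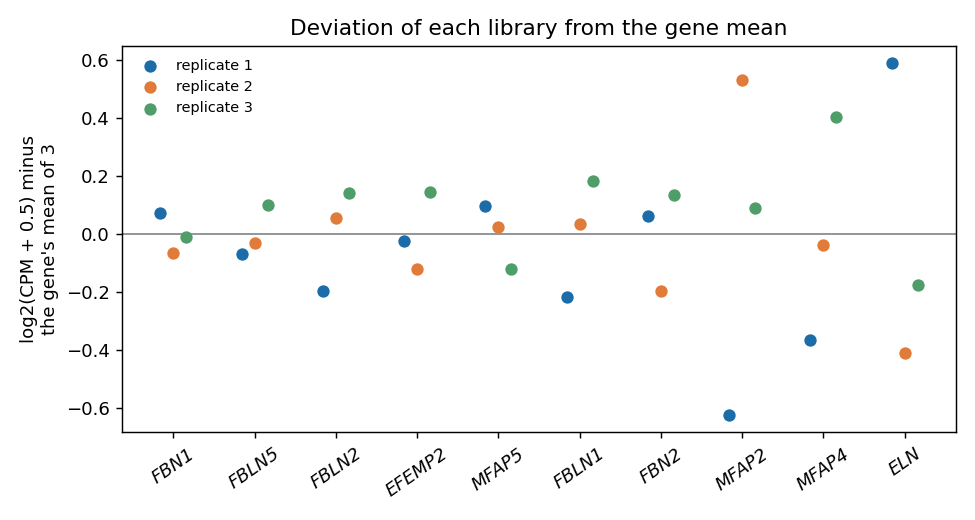
Deviation of each library from the gene's own mean on the log2(CPM + 0.5) scale, for the 10 genes ordered by mean CPM; points are libraries. MFAP2 runs from -0.62 in replicate 1 to 0.53 in replicate 2, whereas FBN1 stays between -0.064 and 0.074.

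Fibulins are calcium-binding glycoproteins built from repeated EGF-like modules, and the short fibulins guide elastic fibre assembly. FBLN5, whose protein tethers elastin to microfibrils and to cell-surface integrins, stood at 956, 982 and 1076 CPM in replicates 1 to 3, a mean of 1005 ± 63.4 CPM (SD, n = 3). EFEMP2 encodes the short fibulin that binds lysyl oxidase and brings it to tropoelastin, and it had 141, 132 and 158 CPM, a mean of 144 ± 13.6 CPM (SD, n = 3). In all libraries EFEMP2 had fewer reads than FBLN5, at a steady log2 ratio of -2.81 ± 0.08 (SD, n = 3). The proteins are of similar length. Both genes were highest in replicate 3, and their libraries did not overlap.

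Of the longer fibulins FBLN1 and FBLN2, FBLN2 had more reads in every library. Its protein links fibronectin, laminins and fibrillin in basement membranes and vessel walls. FBLN2 stood at 539, 641 and 680 CPM in replicates 1 to 3, a mean of 620 ± 73.0 CPM (SD, n = 3). FBLN1, whose protein binds fibronectin and is deposited in the elastin core of fibres, stood at 65.2, 77.8 and 86.3 CPM, a mean of 76.4 ± 10.6 CPM (SD, n = 3). The 2 genes had the same order of libraries, lowest in replicate 1 and highest in replicate 3. Their log2 ratio of reads, FBLN1 over FBLN2, was -3.02 ± 0.04 (SD, n = 3), the smallest spread of the 8 pairs.

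In order of read abundance the genes ran FBN1, FBLN5, FBLN2, EFEMP2, MFAP5, FBLN1, FBN2, MFAP2, MFAP4 and ELN. Neighbours in that order kept the same direction in all 3 libraries with 1 exception, MFAP5 over FBLN1, whose log2 ratio of 0.26 ± 0.31 (SD, n = 3) was above 0 in 2 of 3 libraries and smaller than its spread. FBN2 over MFAP2 was in 1 direction but close to its spread, at 0.79 ± 0.72 (SD, n = 3). The order is of reads and not of transcripts.

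The replicate spread of each gene was tested against the trend for genes of its abundance, with edgeR dispersions over 10434 genes that had 10 or more counts in every library. Of the 9 genes tested (ELN had too few reads), 0 varied more than the trend at an adjusted p under 0.05, against 0% of all genes tested, and 0 did so at an unadjusted p under 0.05, against 5.06% (528 genes). A fit with DESeq2 dispersions also called 0 genes. MFAP2 had the lowest unadjusted p, 0.096 (edgeR adjusted p = 1.00), with a CV of 38.6%, where its abundance predicted 27.4%. The other 8 had a CV below the one predicted, down to 4.83% against 19.9% for FBN1. The share of all genes tested that lay below their prediction was not counted, so these 8 are not shown to be unusually steady. A p that misses the threshold does not show that MFAP2 was as steady as its neighbours in abundance. Without replicate 3 its unadjusted p was 0.013 (edgeR adjusted p = 0.96).

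**Figure D3:**
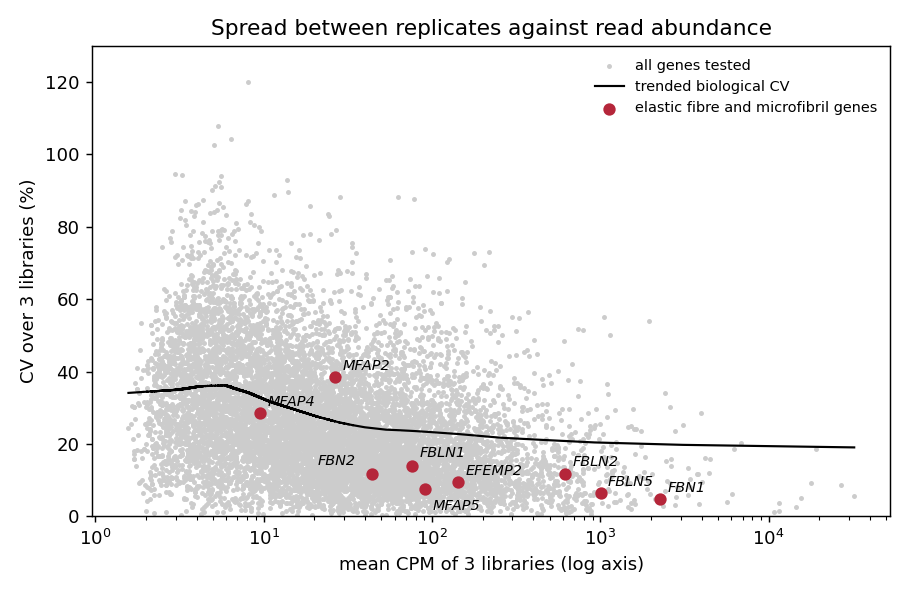
CV over the 3 libraries against mean CPM on a log axis for the 10434 genes tested (grey) and 9 of the elastic fibre and microfibril genes (red); the line is the biological CV of the edgeR trend, which leaves out counting error. MFAP2 lies above the line at 38.6% and the other 8 lie below it.

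Replicate 1 was the lowest library for 5 of the 9 genes tested, FBLN1, FBLN2, FBLN5, MFAP2 and MFAP4, against 40.3% of all genes tested. Among the partner genes described next it was the lowest for 25 of 47. The measured smooth muscle markers did not share an order of libraries. TAGLN, with 185, 402 and 372 CPM in replicates 1 to 3, was lowest and highest in the same libraries as MFAP2. CNN1, with 40.4, 68.3 and 94.4 CPM, was lowest in replicate 1 but highest in replicate 3. ACTA2, with 4024, 3649 and 4416 CPM, and SMTN, with 9.50, 6.65 and 16.2 CPM, were lowest in replicate 2 and highest in replicate 3. Over the whole smooth muscle list the summed CPM was 4264, 4126 and 4899, lowest in replicate 2. Most of that sum was ACTA2, so it follows the order of ACTA2 and does not speak for the other markers. The part of other cells or of library quality in the MFAP2 values was not tested.

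Genes known to act with elastic fibres were followed as 7 lists of 66 genes, of which 62 had a row and 48 were measured. Of all listed genes 34.6% were measured, and that share is the background for the count of each list below. No list member varied more than the trend (0 of 47 tested with edgeR at an adjusted p under 0.05). At an unadjusted p under 0.05 there were 3 of 47, LOXL1, EMILIN1 and ADAMTSL3, named after their values were seen, against 5.06% of all genes tested, and a count so near the background is no result about these lists. LOXL1, an oxidase needed for elastic fibre renewal in adult mice, had 19.7, 47.4 and 55.4 CPM in replicates 1 to 3. EMILIN1, a glycoprotein at the interface of elastin and microfibrils, had 2.85, 7.86 and 15.2 CPM. ADAMTSL3, whose protein belongs to the ADAMTS-like family, had 2.14, 6.45 and 1.97 CPM. The first 2 were lowest in replicate 1, as was MFAP2, and ADAMTSL3 was lowest in replicate 3.

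Crosslinking enzymes had many more reads than ELN. All 5 lysyl oxidases were measured, and LOX, the main crosslinker of elastin and collagen, stood at 1669, 1461 and 1404 CPM in replicates 1 to 3. LOXL2, which crosslinks basement membrane collagen, averaged 741 ± 125 CPM (SD, n = 3), and LOXL4, a further member of the family, had 127, 153 and 153 CPM. The median of this list was 144 CPM.

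Genes of growth factor storage had a lower list median than the lysyl oxidases, at 25.2 CPM. All 7 latent TGF-beta binding protein and TGF-beta ligand genes were measured, against 34.6% of all listed genes. At 100 CPM in every library there were 0 of 7, which is near the 4.33% of all listed genes. LTBP2, a microfibril component that does not bind latent TGF-beta, averaged 87.7 ± 15.1 CPM, TGFB2, a TGF-beta ligand, averaged 81.9 ± 6.88 CPM, and LTBP1, which anchors latent TGF-beta, averaged 51.7 ± 11.8 CPM (SD, n = 3 each).

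Of 12 further fibrillin, fibulin, emilin and microfibril genes 7 were measured, and their median was 5.56 CPM. HMCN1, a very long fibulin of basement membranes, averaged 443 ± 91.3 CPM. MFAP3, a gene named for microfibrils although its protein sits in the cell membrane, averaged 189 ± 4.43 CPM, and EMILIN2, a relative of EMILIN1, averaged 60.4 ± 14.3 CPM (SD, n = 3 each). The members below 1 CPM in some library were MGP, a calcification inhibitor, with 6, 1 and 2 reads, FBLN7 with 1, 0 and 0 reads, and FBN3, HMCN2 and MFAP3L, which were listed at 0.

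Among the ADAMTS and ADAMTSL genes, whose proteins bind fibrillin or shape microfibrils, 6 of 8 with a row were measured, with a median of 4.99 CPM. ADAMTS6, a secreted metalloprotease, averaged 89.9 ± 19.3 CPM, ADAMTSL4, a gene mutated in lens dislocation, 33.1 ± 2.48 CPM and PAPLN 30.7 ± 2.20 CPM (SD, n = 3 each). THSD4 had 10, 8 and 1 reads and ADAMTSL2 was listed at 0.

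Matrix scaffold partners had the highest summed CPM of the 7 lists, 22961, 22763 and 23155 in replicates 1 to 3. FN1, the gene of fibronectin, on which fibrillin assembly depends in culture, averaged 11556 ± 178 CPM, DCN, the gene of the proteoglycan decorin, averaged 10697 ± 128 CPM and FKBP10, a chaperone gene of collagen and tropoelastin, 359 ± 67.2 CPM (SD, n = 3 each). Of the 8 genes with a row 7 were measured. The exception, VCAN, which encodes the proteoglycan versican, was listed at 0 reads in every library, while its neighbours in the RefSeq gene order had reads, XRCC4 with 72, 28 and 26, HAPLN1 with 5, 3 and 2 and, next to HAPLN1, EDIL3 with 2038, 1086 and 1374. Whether reads could be assigned to VCAN was not tested, and its level is uncertain.

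Integrin receptor genes and metalloprotease inhibitors had many reads, while elastin-degrading proteases ranged from many reads to almost none. Of the 11 receptor genes 9 were measured, among them the integrin subunits ITGB1 (964 ± 61.7 CPM) and ITGB3 (739 ± 55.2 CPM) and the elastin-binding lectin LGALS3 (282 ± 94.5 CPM; SD, n = 3 each). NEU1, the sialidase of the elastin receptor complex, had 7, 11 and 10 reads, and the epithelial integrin subunit ITGB6 was listed at 0. Of the 11 protease and inhibitor genes with a row 7 were measured. They were led by the inhibitor TIMP3, at 826 ± 26.4 CPM, the gelatinase and elastase MMP2, at 535 ± 45.9 CPM, and the inhibitor TIMP1, at 516 ± 94.0 CPM (SD, n = 3 each). Next came the protease CTSK, at 459 ± 81.5 CPM, and the inhibitor TIMP2, at 397 ± 80.7 CPM. The proteases MMP14, at 44.9 ± 3.75 CPM, and CTSS, at 3.88 ± 1.90 CPM, had fewer reads (SD, n = 3 each). The macrophage elastase MMP12 had 0, 0 and 1 reads, MMP9 had 3, 0 and 1, CTSL had 1, 2 and 1, and MMP7 was listed at 0. As for VCAN, whether reads could be assigned to these genes was not tested.

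**Figure D4:**
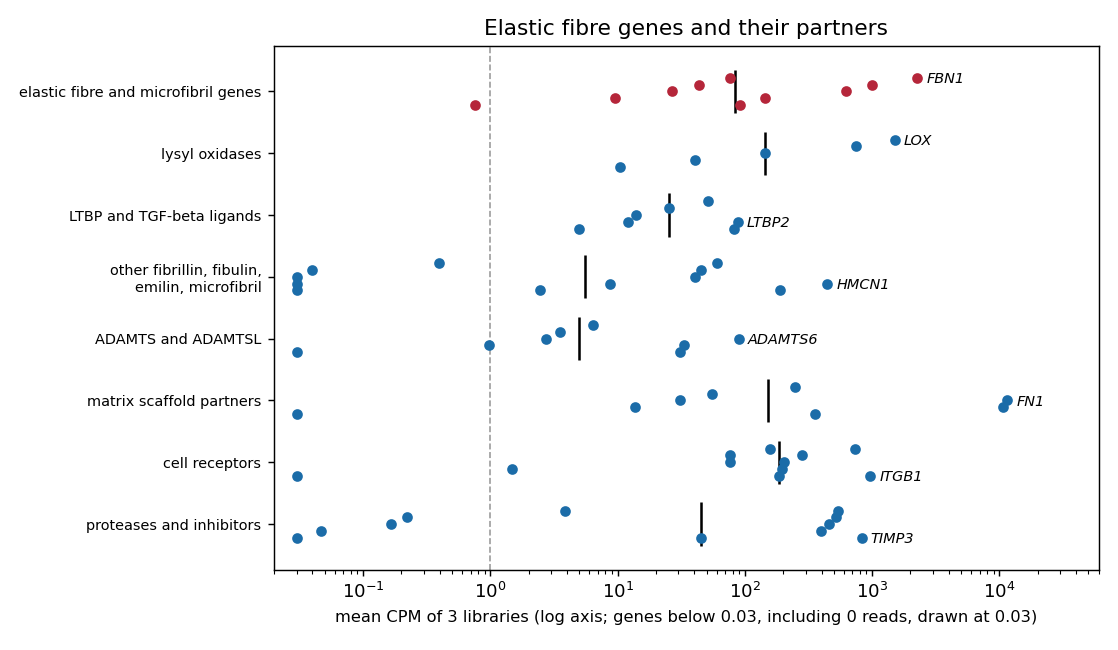
Mean CPM of 3 libraries on a log axis for the 10 elastic fibre and microfibril genes (red) and the 7 partner lists (blue); each point is a gene, the black bar is the list median, the dashed line marks 1 CPM and the gene with the highest mean is named. The elastic fibre and microfibril median is 83.7 CPM, between 4.99 CPM for the ADAMTS list and 187 CPM for the receptors.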

How the data were processed

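The authors deposited raw counts, whole numbers of reads for each gene and replicate. The submitters' processing notes name HTSeq 0.6.1 along with TopHat2 2.0.10 and bcl2fastq 2.18.0.12. Not given in the sources used here are the build, the annotation and how HTSeq was set, strand included, so a gene's reads may include those of an antisense or overlapping neighbour. Per the labels' protocols, cDNA was amplified isothermally from a single primer and read as single reads of 100 bases.

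Library sizes and tests leave out the 5 summary rows that name no gene. They held reads in no gene (58.9 to 62.0% of counted reads), with several alignments (7.52 to 7.99%), and over several genes (0.235 to 0.253%). The TMM factors behind CPM, from edgeR 4.0.16 (R 4.3.3), were 0.978, 1.02 and 0.998. Log2 ratios of reads used a pseudocount of 0.5 reads and the log2 CPM scale a pseudocount of 0.5. Plain ratios and shares of reads used no pseudocount. As an approximate upper 95% limit, a count of 0 allows up to 3 reads, or 0.605 CPM in the shallowest library. The exact 95% intervals given above split the error over both tails and would reach higher at 0 reads. Reads carry no molecular identifiers, so the limit and all intervals are of counting error alone.

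Replicate spread was tested by a Pearson statistic under negative binomial variance with edgeR trended dispersions, referred to chi-square (2 degrees of freedom), with Benjamini-Hochberg adjustment over all genes tested. The procedure was checked on simulated data. The simulated counts had a constant biological CV, below the common one of these data (27.3%), so the check does not show the power of the test here. DESeq2 1.42.0 gave alternatives. Ratios were planned per coding length, but no lengths were at hand, so they are ratios of reads. The genes and lists were chosen with earlier results of these data known. Named genes were the 10 chosen, the 3 highest of each list, list members under 1 CPM where 5 or fewer, and the 3 genes nearest FBN1. The other measured protease, inhibitor and smooth muscle genes were named after their values were seen. ADAMTSL5, TNXB, ATP7A and ELANE were not analysed here.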

Additional observations from a re-analysis of the deposited data

How the results depend on the processing

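Under DESeq2 size factors and total gene counts no mean CPM of the 10 genes moved by more than 1.01-fold. Leaving out 1 replicate moved ELN by up to 1.55-fold, to 0.488 CPM without replicate 1, and the other means by at most 1.25-fold (MFAP2, to 21.4 CPM without replicate 2). The counts of 9 genes measured and 4 at 100 CPM did not change under any of these. None of the 8 log2 read ratios changed sign. Pseudocounts of 0.1 and 1 moved them by at most 0.16 (FBN1 over ELN), and leaving out 1 replicate by at most 0.39 (FBN1 over ELN, to 11.93 without replicate 1), with MFAP2 over MFAP5 next, at -1.47 without replicate 1. The share of reads held by the 10 genes was 0.136% when all counted reads, including those in no gene, were the denominator. The count of all genes more variable than the trend was 3 with a common dispersion. It ranged from 0 to 15 when 1 replicate was left out (15 without replicate 1, 1 without replicate 3). In these runs 0 of the 9 measured genes was called, and ELN had too few reads to be tested. The unadjusted p of MFAP2 ranged from 0.013 to 0.30 over 8 alternatives and its adjusted p from 0.87 to 1.00. The ratio without correction for length is the one reported, so that alternative was not run separately. No paired analysis was possible because the study has 1 group. With 2 to 11 reads a library, ELN cannot be compared between replicates at this depth.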
